A study of Mus musculus with 18 samples.

Results

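Among the cytosines that the deposited files list as 5-methylcytosine (m5C) sites, those followed by guanine at each of bases 2, 3 and 4 after the site, on the site's own strand of mm10, are described here. They were taken from the 18059 distinct sites of 9 bisulfite libraries that fall, strand included, within exons of protein-coding RefSeq transcripts (mRNA sites). Of these, 591 met the rule and are called GGG sites, and the other 17468 mRNA sites serve as the comparison. In all, the files list 25890 sites.

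The RNA is labelled as that of primary neurons from the cerebral cortex of C57BL/6 mice, taken from fetuses at day 18. Control cultures were left untreated. Cultures of the other groups were kept in glucose-free medium under hypoxia (oxygen and glucose deprivation, OGD) for 1.5 h or for 3 h and were then returned to normal medium for 24 h (reoxygenation, R), giving the groups OGD/R 1.5 h and OGD/R 3 h. After removal of rRNA, total RNA went through bisulfite treatment, with 3 libraries in each group, and the 9 libraries made without bisulfite were not analysed here. The shares of nitrogen, oxygen and carbon dioxide in the labels add up to more than the whole gas, so the oxygen level of the hypoxia cannot be read from them. The study's supplement names the 3 libraries of a group as replicates of a sequencing pool, and no source says that they come from separate cultures. They were therefore counted as 1 sample, values of each library are given, SD describes the spread between libraries, and no p-value was computed between groups.

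The cell type in the label was checked against marker genes, counting a gene when it carries at least 1 mRNA site. Of all 21013 genes, 1804 did in control, 1746 in OGD/R 1.5 h and 1447 in OGD/R 3 h. At such a share, a short list of genes would hold few or none with a site. None of the 16 neuronal markers, Tubb3, Map2 and Snap25 among them, carried a site in any of the 9 libraries, nor did any of the 6 oligodendrocyte or 6 microglial markers. Of 7 astrocyte markers, only Aldh1l1 did, with 1 site in each group. Of 17 markers of intestinal epithelium, 14 carried sites in control, 13 in OGD/R 1.5 h and 17 in OGD/R 3 h. Their sites summed to 112, 104 and 93 in the control libraries, to 59, 59 and 67 in those of OGD/R 1.5 h and to 204, 194 and 206 in those of OGD/R 3 h. The gene with most of them was Apoa4 in control, with 32 sites in the union of the libraries, and Fcgbp after OGD of either length, with 23 sites at 1.5 h and 99 at 3 h. In each OGD/R 3 h library, 3 of 9 neutrophil markers (S100a8, S100a9 and Ngp) carried 21 sites in all and 2 of 7 erythroid markers (Hbb-bs and Hbb-bt) 31, and neither list had a site in the other groups. In each group, 4 of 9 smooth muscle and fibroblast markers had sites, 22, 17 and 18 sites in the 3 groups. The files hold sites and not expression, so a marker without a site may still be expressed. The groups are called by their labels, and whether RNA of other tissues is present was not tested.

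Bisulfite turns cytosine into uracil unless it is methylated, and a cytosine that is still read as such is called a site. In mammalian cells m5C is placed by methyltransferases of the NSUN family and by TRDMT1. NSUN2, the main enzyme for cytosines of tRNA, also methylates mRNA, and its sites there are known to lie next to a run of guanines, often at the foot of a predicted hairpin. NSUN6, which modifies other mRNA cytosines, uses a different downstream motif. ALYREF, an export factor, and YBX1, a cold shock protein, are known to bind m5C in mRNA. No library with less NSUN2 is part of the series, so whether any GGG site depends on NSUN2 was not tested.

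The windows that follow are 21 nt of mm10, written 5′ to 3′ on the strand of the site and named by gene and position, with the site and the guanines of the rule in capitals. Those of the first set are the GGG sites called in all 9 libraries.
Tmem38b 53860708 (chr4:53860698-53860718, plus strand, 3′ UTR): tggagctaagCaGGGtcgggc
Tmem38b 53860746 (chr4:53860736-53860756, plus strand, 3′ UTR): gggagaccgcCtGGGaatacc
Tmem38b 53860755 (chr4:53860745-53860765, plus strand, 3′ UTR): cctgggaataCcGGGtgctgt
Lars2 123462095 (chr9:123462085-123462105, plus strand, 3′ UTR): ggaacgtgagCtGGGattaga
Gm14781 91634640 (chrX:91634630-91634650, plus strand, CDS): ccttctgtgcCtGGGgagact

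The next windows are those of the 3 GGG sites with the highest scores in control (Anpep to Ckmt1), OGD/R 1.5 h (Eif6 to Pigr) and OGD/R 3 h (Apoa1 46229889 to Cyba) among the sites called in all 3 libraries of that group and in no other library.
Anpep 79822281 (chr7:79822271-79822291, minus strand, stop codon region): ccaacatcgaCtGGGtgaagg
Apoa1 46229866 (chr9:46229856-46229876, plus strand, CDS): gcaggaacggCtGGGcccatt
Ckmt1 121361215 (chr2:121361205-121361225, plus strand, CDS): aagattctgcCgGGGcctcaa
Eif6 155823868 (chr2:155823858-155823878, minus strand, CDS): cagacttggaCaGGGtgaggt
Fam120a 48914925 (chr13:48914915-48914935, minus strand, CDS): acaagattggCtGGGagaaga
Pigr 130851736 (chr1:130851726-130851746, plus strand, 3′ UTR): taaggccagcCtGGGatacat
Apoa1 46229889 (chr9:46229879-46229899, plus strand, CDS): ctcgggacttCtGGGataacc
Ngp 110419866 (chr9:110419856-110419876, plus strand, start codon region): gagacaatggCaGGGctgtgg
Cyba 122432899 (chr8:122432889-122432909, minus strand, start codon region): cagagttggaCcGGGctgctg

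The last windows belong to GGG sites whose scores did not overlap between a pair of groups. Another such site in Sod1 lies 1 nt further on and is not shown.
App 85173675 (chr16:85173665-85173685, minus strand, 5′ UTR): ggcgagagcaCcGGGagcaga
Sod1 90220848 (chr16:90220838-90220858, plus strand, start codon region): cgcgcgtctcCcGGGgaagca
Apoa1 46230040 (chr9:46230030-46230050, plus strand, CDS): ggtggcgcctCtGGGcgccga
Plcl2 50509623 (chr17:50509613-50509633, plus strand, start codon region): ggagtgtggcCgGGGcgccgc
Frk 34483585 (chr10:34483575-34483595, plus strand, 5′ UTR): aggcttgaagCaGGGtgagag
Itm2b 73364558 (chr14:73364548-73364568, minus strand, CDS): aactgcagcgCcGGGaaacaa
Net1 3883071 (chr13:3883061-3883081, minus strand, 3′ UTR): aggcaggagtCtGGGataggg
Pkp3 141079803 (chr7:141079793-141079813, plus strand, start codon region): gactctggaaCcGGGcctcga

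GGG sites made up a larger share of the mRNA sites in every control library than in any library of the OGD/R groups. In control replicates 1, 2 and 3 there were 163, 169 and 139 GGG sites, or 4.19%, 4.08% and 3.66% of the mRNA sites of the library. The OGD/R 1.5 h libraries held 125, 123 and 128 (3.56%, 3.46% and 3.41%), and the OGD/R 3 h libraries held 176, 153 and 160 (3.34%, 3.23% and 3.38%). The means were 3.98 ± 0.282% in control, 3.48 ± 0.0765% in OGD/R 1.5 h and 3.32 ± 0.0747% in OGD/R 3 h (each ± SD of 3 libraries), with no overlap of libraries between groups. The difference from control was -0.497 percentage points in OGD/R 1.5 h and -0.660 points in OGD/R 3 h, and the 2 OGD/R groups differed by -0.162 points. With the sites of a group's libraries merged, 258 of 6825 sites were GGG sites in control (3.78%, 95% Clopper-Pearson interval 3.34% to 4.26%), 231 of 7066 in OGD/R 1.5 h (3.27%, 2.87% to 3.71%) and 262 of 8280 in OGD/R 3 h (3.16%, 2.80% to 3.56%). These intervals overlap, and they cover counting error only, since neighbouring sites are not independent.

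The order of the groups depended on which sites were counted. Among sites with no other listed site within 10 nt in the same library, OGD/R 3 h was 0.544 points above OGD/R 1.5 h and differed from control by -0.194 points. With a score of at least 10, OGD/R 3 h differed from control by -1.14 points and from OGD/R 1.5 h by -0.596 points.

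**Figure D1:**
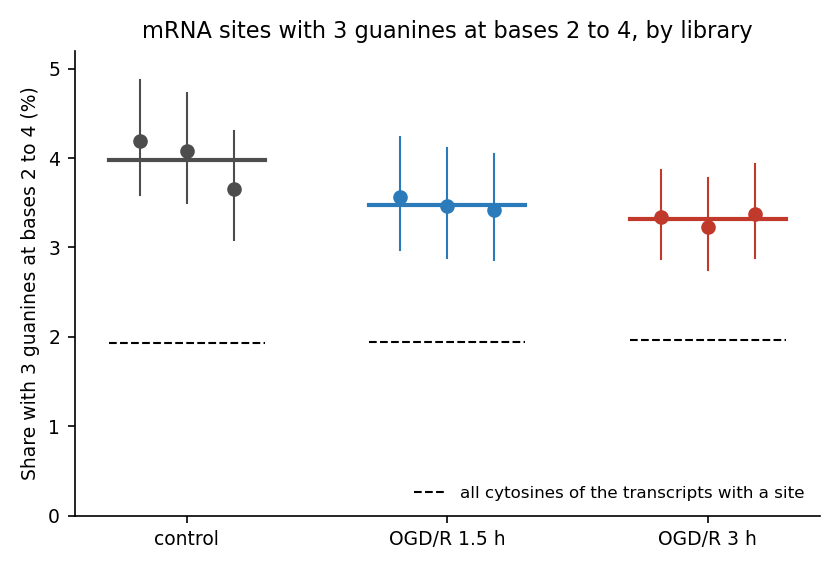
Share of the mRNA sites of a library with 3 guanines at bases 2 to 4 (percent), by group. Points are libraries with 95% Clopper-Pearson intervals, solid lines are means of 3 libraries, and dashed lines are the share among all cytosines of the transcripts with a site, at 1.94% to 1.96%. All control libraries, from 3.66% to 4.19%, lie above all libraries of the OGD/R groups.

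Each share was set against the cytosines of the representative transcripts that carry a site in the same group, 1778773 in control, 1683486 in OGD/R 1.5 h and 1315900 in OGD/R 3 h. Of these, 1.94%, 1.94% and 1.96% have GGG at bases 2 to 4. GGG sites were thus 2.17, 2.10 and 1.89 times as frequent as these cytosines in the control libraries, 1.84, 1.78 and 1.76 times in those of OGD/R 1.5 h and 1.70, 1.65 and 1.72 times in those of OGD/R 3 h. GGG was not the triplet with the highest ratio. Over the 9 libraries its mean of 1.85 ranked at position 7 of 64 triplets at bases 2 to 4, after GCG (2.83), GAG (2.57), GGA (2.50), CGG (2.30), CGC (2.01) and CCG (1.97). Within the groups it stood at position 5 in control, 8 in OGD/R 1.5 h and 10 in OGD/R 3 h.

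Runs of 3 guanines were also more frequent at other distances from the site, before it as well as after it. With the run starting at base 2, the place the rule uses, the mean ratio to the cytosines of the transcripts was 2.05 in control, 1.79 in OGD/R 1.5 h and 1.69 in OGD/R 3 h. Of the adjacent places, base 3 had lower ratios, at 1.98, 1.54 and 1.64, and base 1 higher ones, at 2.82, 2.54 and 1.92. On the other side of the site, ratios were 3.16, 2.62 and 1.79 for a run starting at base -3, which ends just before the site. At base -10 they were still 1.82, 1.71 and 1.26. From base -10 to -3 and from base 1 to 8, every library was above 1, with 1.11 as the lowest value. Among isolated sites with a score of at least 100, the mean over the 9 libraries was 2.31 for a run starting at base 2 (1.21 to 3.14), the highest of bases 1 to 8, 1.96 at base 1 (0.330 to 3.73) and 4.83 for a run starting at base -3 (3.37 to 6.16).

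**Figure D2:**
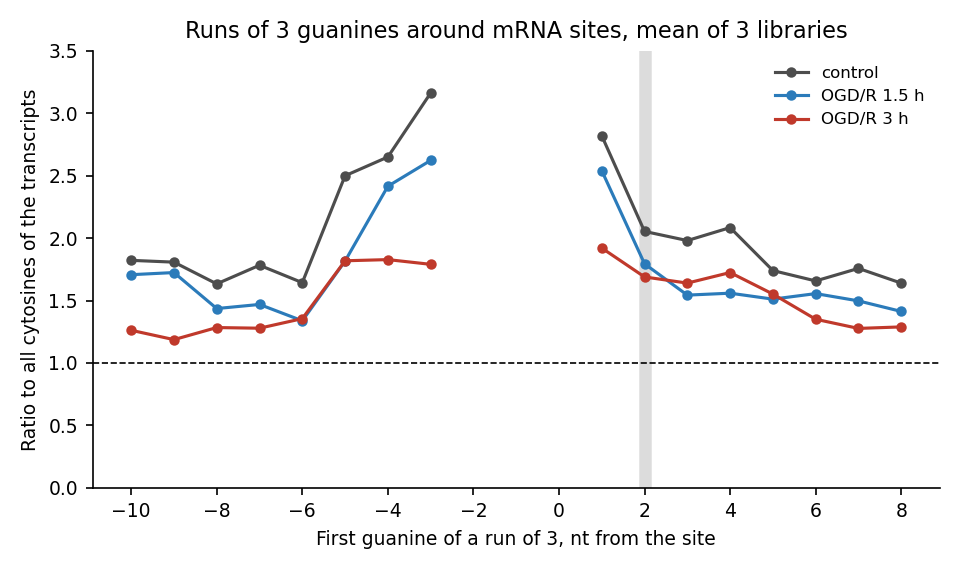
Ratio of the share of mRNA sites to the share of all cytosines of the same transcripts that have a run of 3 guanines, by the position of its first guanine in nt from the site. Points are means of 3 libraries for each group, the grey band marks base 2, and the dashed line marks a ratio of 1. The points at base -3 (3.16 in control) and base 1 (2.82) lie above that at base 2 (2.05).

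The score in the files is 10 times the call score of the authors' caller, cut to its whole part and capped at 1000. A site with more coverage or a higher methylation level has a higher score, and the score alone gives neither. Library depth is not given with the sites, and coverage was held only in part, for control and OGD/R 3 h. GGG sites were more frequent among sites with a high score than among those with a score below 5. In control, 2.88% of the sites with a score of 0 to 4 were GGG sites, against 6.12% of those with a score of at least 100 (6.18%, 5.76% and 6.42% in the 3 libraries). For OGD/R 1.5 h the lowest range had 2.76% and the top range 5.57% (5.85%, 6.10% and 4.75%). For OGD/R 3 h it was 2.78% and 3.52% (3.42%, 3.91% and 3.23%), with higher shares of 3.81% at scores of 10 to 29 and 3.90% at 30 to 99. At a score of 0 to 4 the groups therefore lay close together, while at 100 and over every library of control and OGD/R 1.5 h lay above every library of OGD/R 3 h. Relative to the cytosines of the transcripts, the top range stood at 3.16, 2.87 and 1.79 in the 3 groups, and the lowest at 1.49, 1.42 and 1.42.

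**Figure D3:**
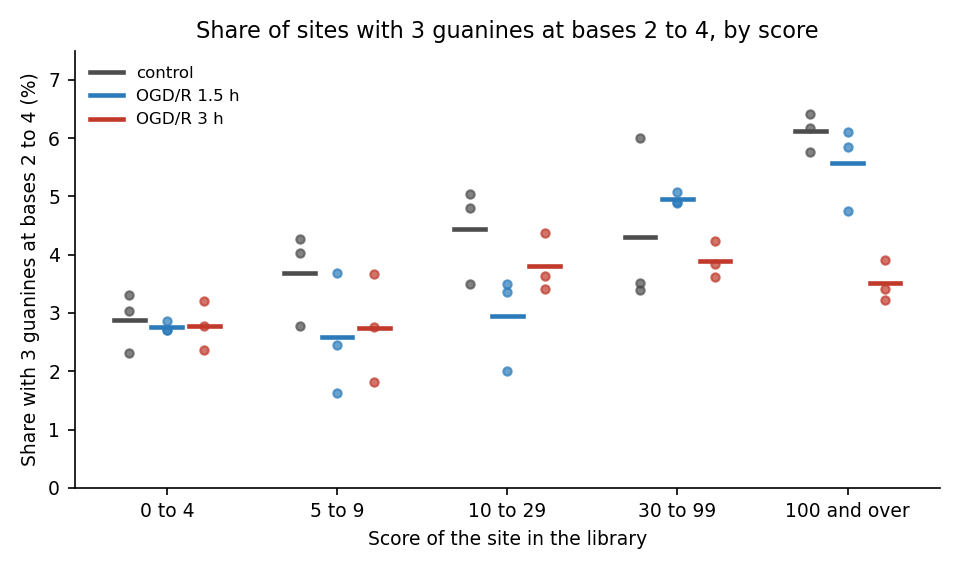
Share of sites with 3 guanines at bases 2 to 4 (percent), by the score of the site in the library. Points are libraries and bars are means of 3 libraries. At a score of 100 and over, the means are 6.12% in control, 5.57% in OGD/R 1.5 h and 3.52% in OGD/R 3 h.

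GGG sites had higher scores than the other mRNA sites of the same library in all 9 libraries. Their median score was 23, 16 and 20 in the control libraries, against 9, 10 and 10 for the other sites. It was 18, 14 and 17.5 against 7, 7 and 7 in OGD/R 1.5 h, and 18, 22 and 14 against 12, 12 and 11 in OGD/R 3 h. The mean log2 ratio of the medians was 1.01 in control, 1.23 in OGD/R 1.5 h and 0.60 in OGD/R 3 h. An exact two-sided sign-flip permutation test over these 3 group values gave p = 0.25, the smallest value that 3 groups allow, and 0.5 after Benjamini-Hochberg adjustment over 4 measures. When only scores of 10 or more were kept, the log2 ratios were 0.36, 0.48 and 0.02.

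GGG sites were called more often in all 3 libraries of a group. In control 80 of 258 were (31.01%, 95% Clopper-Pearson interval 25.4% to 37.0%), against 1730 of 6567 other sites (26.3%). In OGD/R 1.5 h it was 53 of 231 (22.9%, 17.7% to 28.9%) against 1218 of 6835 (17.8%), and in OGD/R 3 h 93 of 262 (35.5%, 29.7% to 41.6%) against 2470 of 8018 (30.8%). The differences of 4.66, 5.12 and 4.69 points had the same sign in the 3 groups. With a library of the group left out they ran from 2.58 to 7.49 in control, from 3.53 to 6.97 in OGD/R 1.5 h and from 2.87 to 7.18 in OGD/R 3 h. The exact permutation test gave p = 0.25 (0.5 after adjustment). In each group, the interval of the GGG sites holds the share of the other sites. With a score of at least 10, the difference in OGD/R 3 h was -0.27 points.

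Recurrence was lowest at scores of 0 to 4 in each group and did not go up steadily above them, and within ranges of the highest score in the group the difference had no steady sign. GGG sites were called in all 3 libraries more often than other sites in 9 of 15 combinations of group and score range and less often in 6. In the top range, at least 100, 27 of 36 GGG sites of OGD/R 3 h were called in all 3 libraries (75.0%) against 669 of 1111 other sites (60.2%), while in OGD/R 1.5 h it was 18 of 44 (40.9%) against 331 of 701 (47.2%). In control, 25 of 62 GGG sites of that range were (40.3%) against 403 of 1045 (38.6%).

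Isolation, the lack of another listed site on the strand within 10 nt in the same library, differed between the groups. In OGD/R 3 h 58.0%, 60.1% and 52.5% of the GGG sites were isolated, against 48.0%, 49.3% and 48.7% of the other sites. In OGD/R 1.5 h the values were 53.6%, 59.3% and 59.4% against 60.1%, 61.2% and 60.3%, and in control 54.0%, 52.7% and 56.1% against 53.0%, 53.8% and 53.0%. The mean difference was 8.18 points in OGD/R 3 h, where it was positive in every library, -3.07 points in OGD/R 1.5 h, where it was negative in every library, and 1.01 points in control. The exact permutation test over the groups gave p = 0.75 (0.75 after adjustment). With 25 nt in place of 10 nt the differences were 4.24, 0.76 and 4.31 points, so that the sign in OGD/R 1.5 h turned. At scores of 100 and over the sign in OGD/R 3 h turned as well, with 37.5% of the calls of GGG sites isolated against 42.7% of the others. Isolated sites of OGD/R 3 h were GGG sites in 3.85% of cases and clustered sites in 2.80%.

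**Figure D4:**
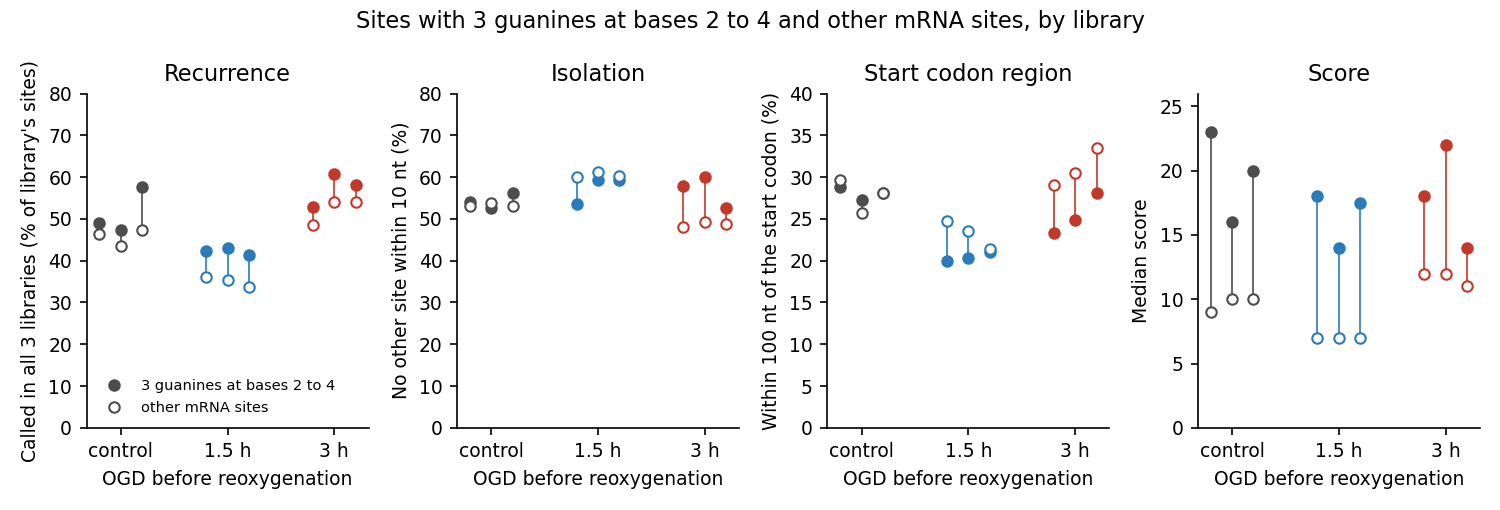
Sites with 3 guanines at bases 2 to 4 (filled) and other mRNA sites (open) in each library, by group. From left to right, the axes give the share of a library's sites called in all 3 libraries of its group (percent), the share with no other site within 10 nt (percent), the share within 100 nt of the start codon (percent) and the median score. The filled points lie above the open ones in all 9 libraries for recurrence and score only.

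The start codon region, which reaches 100 nt to each side of it, held a smaller share of the GGG sites than of the other sites in 8 of 9 libraries. It held 28.0 ± 0.808% of the GGG sites against 27.8 ± 1.96% of the other sites in control, where the mean difference was 0.23 points. For OGD/R 1.5 h these were 20.5 ± 0.562% against 23.2 ± 1.70%, and for OGD/R 3 h 25.4 ± 2.47% against 31.01 ± 2.30% (mean ± SD of the libraries). The mean differences of -2.72 and -5.59 points gave, with that of control, an exact permutation p = 0.5 (0.667 after adjustment). With a library left out, that of OGD/R 1.5 h ran from -3.95 to -1.72 points. Relative to the cytosines with GGG in these transcripts, of which 9.13% to 9.57% lie in this region, GGG sites were 3.07, 2.17 and 2.66 times as frequent there in the 3 groups. The other sites were 4.97, 4.02 and 4.96 times as frequent as the cytosines without GGG. With a score of at least 10, the differences were -2.36, -10.14 and -7.71 points. With 50 nt in place of 100 nt they were smaller in the OGD/R groups, at 1.18 points in control, -1.22 in OGD/R 1.5 h and -2.33 in OGD/R 3 h.

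The 3′ untranslated region (UTR) outside the stop codon region held a larger share of GGG sites than of other sites in all 9 libraries. The means were 14.3 ± 1.74% against 6.54 ± 0.132% in control, 17.3 ± 0.899% against 6.84 ± 0.164% in OGD/R 1.5 h and 10.9 ± 0.798% against 7.69 ± 0.180% in OGD/R 3 h, each ± SD of 3 libraries. Over the union of the libraries, 3.84, 3.70 and 4.30 of every 1000 cytosines with GGG in the 3′ UTR were listed, against 0.788, 0.855 and 1.55 of every 1000 cytosines without GGG. These rates stood in ratios of 4.87, 4.33 and 2.77, the highest of the 5 regions in each group. The comparison was added after the data had been seen and was not tested. For GG at bases 2 and 3 in place of GGG, the difference in OGD/R 3 h turned to -0.298 points. Without soft-masked sites, sites whose 31-nt window has more than 1 copy in mm10, windows like rRNA or tRNA genes, and the genes Lars2 and Tmem38b, the differences fell from 7.78, 10.43 and 3.18 points to 6.02, 6.91 and 1.70 points.

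In the coding sequence (CDS) outside the codon regions, GGG sites were less frequent than other sites in control, at 42.5% against 51.2%, and in OGD/R 1.5 h, at 51.6% against 58.1%, and more frequent in OGD/R 3 h, at 49.0% against 47.0%. The sign was the same in the 3 libraries of each group. By density, listed cytosines with GGG were 1.84, 1.74 and 1.83 times as frequent as those without in the CDS of the 3 groups. The same ratio was 1.31, 1.01 and 0.879 in the start codon region and 0.955, 0.644 and 0.954 in the 5′ UTR. In the stop codon region it was 1.84, 1.46 and 1.14. By number, 305 of the 591 GGG sites lay in the CDS, 136 in the start codon region, 72 in the 3′ UTR, 47 in the 5′ UTR and 31 in the stop codon region.

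**Figure D5:**
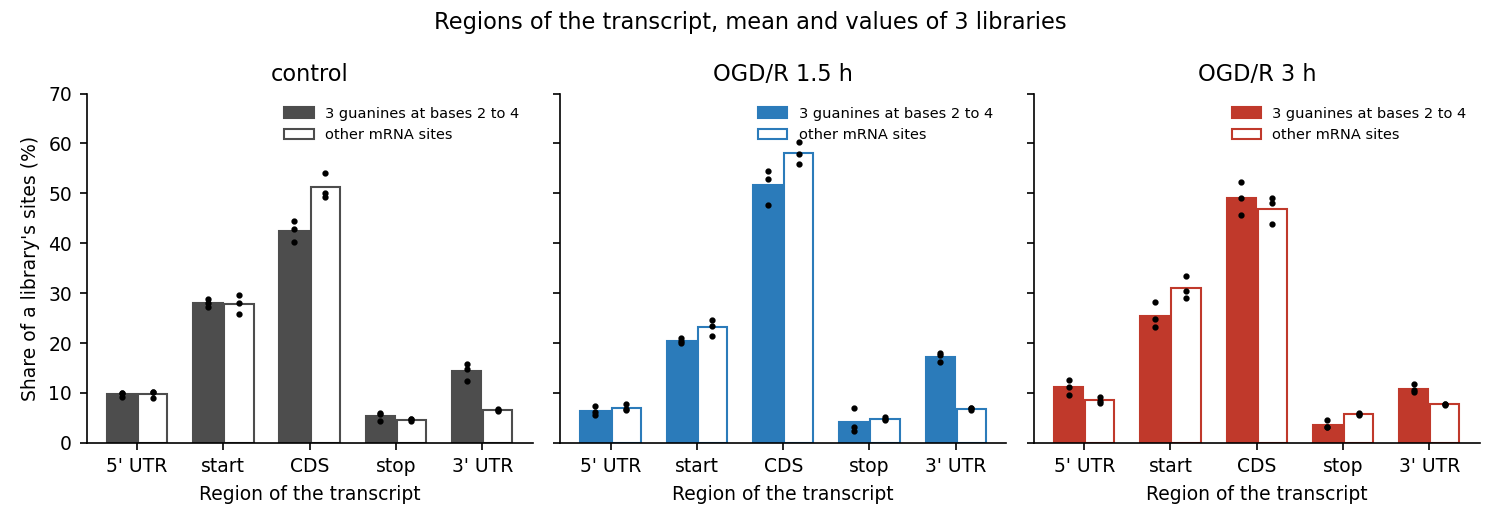
Share of the sites of a library in each region of the transcript (percent), for sites with 3 guanines at bases 2 to 4 (filled bars) and other mRNA sites (open bars). Bars are means of 3 libraries and dots are libraries. In the 3′ UTR the filled bars stand at 14.3%, 17.3% and 10.9% and the open bars at 6.54%, 6.84% and 7.69%.

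Base 1, between the site and the guanines, is free under the rule. Adenine was rarer there than among all cytosines with GGG of the same transcripts, with a mean of 13.4% of the GGG sites of a control library, 20.7% in OGD/R 1.5 h and 11.1% in OGD/R 3 h, against 28.9%, 28.5% and 28.4% of the cytosines. Adenine was also rare there at the other mRNA sites, at 19.7%, 22.7% and 14.4%, so low adenine is not particular to GGG sites. Thymine was the most frequent base, at 40.3%, 41.7% and 44.0%, near the 39.3%, 39.5% and 39.3% of the cytosines and above the 28.9%, 30.7% and 34.7% of the other mRNA sites. Guanine, which makes the site a CG and lengthens the run, was found at 23.5%, 18.9% and 15.6% against 14.5%, 14.5% and 14.7%. In control its share was 25.2%, 23.7% and 21.6% in the 3 libraries, above all libraries of the OGD/R groups, which reached 20.3% at most. Cytosine at base 1 was most frequent in OGD/R 3 h, at 29.3% against 17.7% of the cytosines. The other mRNA sites had as much cytosine in that group (29.8%) and more guanine in each (27.5%, 22.1% and 21.2%).

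The other bases within 10 nt of a GGG site were also rich in guanine. Leaving out the site and bases 2 to 4, guanine made up 36.0% of them in control, 32.6% at 1.5 h and 32.5% at 3 h of OGD. The cytosines with GGG of the same transcripts had 28.5%, 28.5% and 28.4%. Around the other mRNA sites these bases held still more guanine, at 38.2%, 35.6% and 33.4% in the same order. Cytosine around GGG sites was below that of the cytosines with GGG in each group, at 21.9%, 21.8% and 25.7% against 26.6%, 26.7% and 26.9%. Around the other mRNA sites it was 20.8%, 21.8% and 26.5%, so low cytosine is not particular to GGG sites.

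RNAfold predictions for the 51 nt of spliced transcript centred on the site gave fewer paired guanines at GGG sites than at the cytosines with GGG of the same transcripts that no library lists. All 3 guanines were paired in 28.2%, 30.95% and 29.5% of the windows in the control libraries, in 34.7%, 35.8% and 38.3% in OGD/R 1.5 h and in 36.4%, 40.5% and 39.6% in OGD/R 3 h. At the unlisted cytosines the shares were 46.6%, 46.7% and 46.8%, above every library. The site itself was paired in 67.5%, 67.2% and 57.2% of the windows on average, against 59.2%, 58.9% and 59.0%. In OGD/R 3 h that order turned with other windows, to 59.4% against 54.5% with 41 nt and to 65.8% against 63.01% with 71 nt. Median free energies were -12.67, -11.98 and -12.93 kcal/mol, against -13.0 in each group for the unlisted cytosines. The gap was widest in OGD/R 1.5 h, also with 71 nt (-17.08 against -19.5), while in OGD/R 3 h the order turned with 41 nt (-10.03 against -9.8) and 71 nt (-20.02 against -19.5). The windows also differ in guanine and cytosine content, whose part in the predictions was not tested.

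Most GGG sites belonged to a single group. Of the 591, 462 (78.2%) were listed in 1 group, 98 (16.6%) in 2 and 31 (5.25%) in 3, against 80.9%, 15.5% and 3.56% of the other sites. By library, 267 GGG sites (45.2%) were listed in 1 library only, 151 (25.5%) in 3 libraries and 31 (5.25%) in 6, against 49.1%, 23.5% and 2.21% of the other sites. Control and OGD/R 1.5 h shared 74 GGG sites, which are 28.7% of those of control and 32.0% of those of OGD/R 1.5 h. Control and OGD/R 3 h shared 59 (22.9% and 22.5%), and the OGD/R groups shared 58 (25.1% of OGD/R 1.5 h and 22.1% of OGD/R 3 h). For the other mRNA sites these shares were 27.1% and 26.1%, 20.4% and 16.7%, and 21.3% and 18.1%, each below that of the GGG sites, and the differences were not tested.

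Only 5 GGG sites were called in all 9 libraries, 0.846% of them, against 102 other sites, or 0.584%. Of these 5, 4 lie in short stretches of 3′ UTR that are dense with sites, in Tmem38b and Lars2. So do 42 of the 102 other sites. The 3 sites in Tmem38b, which encodes a cation channel of the endoplasmic reticulum, had the capped score of 1000 in every library. They lie among 16 sites called in all 9 libraries within 75 nt, and their 51-nt windows match annotated 5S rRNA genes at 51, 51 and 42 bases. The site in Lars2, the mitochondrial leucyl-tRNA synthetase, had a score of 746 in OGD/R 1.5 h replicate 3 and of 1000 in the other libraries. It lies among 30 sites called in all 9 libraries within 150 nt. Likeness of that stretch to 28S rRNA could be checked only against the fragment of that gene in the annotation. Its own 31-nt window has 1 copy in mm10 and is not soft-masked, while 29 of the 45 mRNA sites of Lars2 have a window with more than 1 copy.

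The remaining site, at 91634640, lies in the CDS of Gm14781, a predicted gene on the X chromosome, and had no other site within 10 nt in any library, the nearest being 11 nt away in OGD/R 1.5 h replicate 2. It scored 643, 101 and 134 in the control libraries, 23, 285 and 106 after 1.5 h of OGD, and 36, 4 and 34 after 3 h. All OGD/R 3 h values lay below all control values, with a mean log2 difference of -3.47. Its 31-nt window has 2 copies in mm10.

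Between groups, scores were compared at sites called in all 6 libraries of a pair, and a site was counted when the scores of the groups did not overlap. Between OGD/R 3 h and control this held for 5 of 16 GGG sites, with 26.4% of all 250 such mRNA sites as background. Higher in OGD/R 3 h were 3 of them (background 10.8%) and lower 2 (background 15.6%). Between OGD/R 1.5 h and control it held for 4 of 19 (background 22.8% of 294), with 3 higher (9.18%) and 1 lower (13.6%). Without control replicate 2 the number in this pair was 9 of 20 (background 31.3%). Between the OGD/R groups it held for 1 of 6 (background 28.1% of 203). A site at the cap of 1000 in at least 1 library of each group cannot meet this rule. This was so for 4 GGG sites, those of Tmem38b and Lars2, in every pair, which leaves 2 GGG sites between the OGD/R groups. Without such sites, it held for 5 of 12, 4 of 15 and 1 of 2 GGG sites in the 3 pairs, against 33.3%, 26.5% and 38.3% of the mRNA sites. The median log2 difference of the GGG sites tested was 0.00, -0.14 and 0.00 in these pairs, against 0.00, -0.09 and 0.00 over all sites, with the capped sites included, and both pairs with control share its libraries.

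In App, the amyloid precursor protein, the GGG site in the 5′ UTR had scores of 191, 126 and 298 in control and of 53, 94 and 15 in OGD/R 3 h, a mean log2 difference of -2.16. Both sites in Sod1, the cytosolic superoxide dismutase, were higher in OGD/R 3 h. That at 90220849 had 6, 20 and 11 against 315, 33 and 32 (2.55), and its neighbour at 90220848 had 44, 20 and 46 against 89, 56 and 61 (0.95). The site of Apoa1 at 46230040 had 716, 720 and 810 in control and 1000, 1000 and 821 in OGD/R 3 h (0.32), so that the cap limits its difference. The sites of Sod1 share reads and are not independent, and the 31-nt window of each has 2 copies in mm10. None of these sites of App, Sod1 and Apoa1 was called in any OGD/R 1.5 h library.

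Between OGD/R 1.5 h and control, the 5′ UTR site of Frk, a tyrosine kinase of the Src family, had scores of 2, 2 and 8 in control and of 65, 74 and 28 in OGD/R 1.5 h, a log2 difference of 3.60. The site in Itm2b, a membrane protein, had 1, 6 and 2 against 38, 12 and 12 (2.43). In Net1, a nucleotide exchange factor of RhoA, the 3′ UTR site had 149, 173 and 119 against 236, 528 and 301 (1.20). The single lower site lay in the start codon region of Plcl2, a phospholipase C-like protein, with 41, 44 and 23 in control and 2, 2 and 9 in OGD/R 1.5 h (-2.99). Low scores such as those of Itm2b are near the floor of the calls. These sites of Frk, Net1 and Plcl2 were called in no OGD/R 3 h library, and that of Itm2b only in replicate 1, with 22. Between the OGD/R groups, Pkp3, a plakophilin of desmosomes, had 3, 3 and 1 at 1.5 h and 7, 20 and 18 at 3 h (2.21). Its site was not called in control.

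Sites called in all 3 libraries of a group and in no library of the others numbered 35 in control, 27 in OGD/R 1.5 h and 61 in OGD/R 3 h. They were 13.6%, 11.7% and 23.3% of the GGG sites of the group, and such sites were 985 of 6567, 604 of 6835 (8.84%) and 1797 of 8018 (22.4%) of the other mRNA sites, so the larger number in OGD/R 3 h is shared by all mRNA sites. In control the highest scores among them were 747, 760 and 939 in Anpep, a brush border aminopeptidase, 649, 710 and 423 in Apoa1, the main apolipoprotein of high-density lipoprotein, and 86, 225 and 539 in Ckmt1, a mitochondrial creatine kinase. In OGD/R 1.5 h they were 176, 86 and 561 in Eif6, a translation factor that binds the large ribosomal subunit, 119, 191 and 205 in Fam120a, and 192, 172 and 128 in Pigr, the receptor that carries immunoglobulin A across epithelia, at a site in a soft-masked repeat. In OGD/R 3 h, Apoa1 at 46229889 and Ngp, a neutrophil granule protein, were at the cap of 1000 in every library, and Cyba, a subunit of NADPH oxidase, had 1000, 1000 and 784. Anpep, Eif6, Fam120a and Pigr had no other site within 10 nt in these libraries, while the sites of Ckmt1, Ngp and Cyba had one at 5, 5 and 1 nt. A site missing from a library may lack coverage there, which the files do not give.

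GGG sites were spread thinly over genes. They lay in 222 of the 1804 genes with an mRNA site in control, in 196 of 1746 in OGD/R 1.5 h and in 203 of 1447 in OGD/R 3 h, 442 genes in all, of which 41 carried one in each group. Of the genes with a GGG site, 192 (86.5%), 170 (86.7%) and 161 (79.3%) carried only 1. Counting sites called in all 3 libraries of a group, 70, 48 and 74 genes carried one.

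The genes with most GGG sites in control were Actb, the cytoplasmic β-actin, with 4 of its 55 mRNA sites, and App and Myh14, a non-muscle myosin, with 3 of 33 and 3 of 15. Slc27a4 and Tmem38b also had 3. In OGD/R 1.5 h they were Actb, with 4 of 47, Myh14, with 4 of 13, and Canx, the chaperone calnexin, with 3 of 39, a number also reached by Cyb5b, Ncor1, Sec31a and Tmem38b. In OGD/R 3 h, Gna11, a G protein α subunit, carried 5 of 59, Sec31a, a component of the COPII coat, 5 of 55 and Vil1, the actin-bundling villin of microvilli, 5 of 25. Of the 5 in Gna11, 4 were called in all 3 libraries, whereas none of the 4 of Actb in control or of the 5 of Sec31a was. Actb has processed pseudogenes, and reads of such copies could not be separated from its own.

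Among the lists of cell type markers, intestinal epithelium, which has most of their mRNA sites, also held most GGG sites by number, with 5 in 4 genes in control, 5 in 4 genes in OGD/R 1.5 h and 17 in 7 genes in OGD/R 3 h. They were 3.18%, 5.21% and 5.74% of the mRNA sites of that list, below the 3.78% of all mRNA sites in control and above the 3.27% and 3.16% of the OGD/R groups. Apoa1 carried 2 in control, 0 in OGD/R 1.5 h and 4 in OGD/R 3 h, and Vil1 carried 1, 1 and 5. The GGG site of Fabp1, a fatty acid-binding protein of liver and intestine, had scores of 1000, 670 and 591 in control and 895, 442 and 763 in OGD/R 3 h and was absent from OGD/R 1.5 h, where Fabp1 carried no site. Fcgbp, a mucus protein, carried 1, 2 and 3, of which none was called in all 3 libraries of a group. In OGD/R 3 h, Krt20, a keratin, carried 2, Muc2, the main intestinal mucin, 1 and Cdx1, a transcription factor of the gut, 1, while Epcam, an adhesion protein, and Apoa4 each carried 1 in OGD/R 1.5 h replicate 1 only. Ngp was the only neutrophil marker with a GGG site, and Acta2, Des and Myh11, of the smooth muscle list, each carried 1, Acta2 and Des in control and Myh11 in OGD/R 3 h. Those of Muc2, Des and Myh11 were each called in 1 library only. The lists of neurons, astrocytes, oligodendrocytes, microglia and erythroid cells had no GGG site.

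None of the 14 genes of the m5C machinery carried a GGG site. Of these genes, Ybx1 carried 5, 5 and 7 other sites in the 3 groups, Tet3, a dioxygenase that oxidizes 5-methylcytosine, 0, 9 and 8, and Alyref 3 in OGD/R 3 h alone. Cytosolic ribosomal protein genes carried 2, 0 and 4 GGG sites among 32, 36 and 70 mRNA sites, with Rpl8 holding 3 of those in OGD/R 3 h. Translation factors carried 1 of 98, 6 of 131 and 2 of 181, the 6 in as many genes, from Eif2d to Eif6. Genes of splicing and RNA-binding proteins carried 1 of 105, 1 of 153 and 2 of 161, shares of 0.952%, 0.654% and 1.24%, below the 3.78%, 3.27% and 3.16% of all mRNA sites, while the lists of vesicle trafficking and solute carrier genes lay above them in each group.

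Vesicle trafficking genes carried 8 of 137, 7 of 177 and 9 of 192 (5.84%, 3.95% and 4.69%), with Copa, of the COPI coat, Sec31a and Ap3d1, an adaptor subunit, holding a GGG site in each group. Lists of this kind were drawn from gene symbols. Genes with Slc symbols, most of them solute carriers but also Slc9a3r1, a scaffold protein, carried 8 of 143, 5 of 126 and 6 of 185 (5.59%, 3.97% and 3.24%), of which 3 in control were in Slc27a4, a fatty acid transporter. Cytoskeletal genes carried 10 of 293, 12 of 289 and 11 of 446, and chromatin regulators 3 of 153, 7 of 159 and 4 of 117. Proteasome and ubiquitin genes carried 3 of 91, 2 of 92 and 3 of 99 (3.30%, 2.17% and 3.03%), also below the share of all mRNA sites in each group. Chaperones carried 2 of 97, 4 of 119 and 4 of 176. With counts this small, no list was tested.

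GGG sites were less often in soft-masked repeats than other sites, but not by the other measures of copies. Of the 591, 22 (3.72%) were soft-masked in mm10, against 5.73% of the other sites, and 21 (3.55%) had a 31-nt window with more than 1 copy, against 3.20%. Windows with at least 40 of 51 bases identical to an annotated rRNA or tRNA gene numbered 3 (0.508%) against 18 (0.103%). All 21 lie in Tmem38b, so this contrast rests on 1 gene. Of the 591, 52 had another GGG site within 10 nt, so they are not all independent, and 2 lay on the mitochondrial chromosome.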

How the data were processed

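For every bisulfite library, the authors mapped reads to mm10 (meRanGh), called sites (meRanCall) and deposited 1 file, whose score is 10 times the call score, cut to its whole part and capped at 1000, without normalization for depth. The submitters' processing notes name CASAVA 1.8, cutadapt 1.9.3 and STAR. How the libraries without bisulfite entered the files is not given in the sources used here. In the part of the study's supplement that was held, for control and OGD/R 3 h, the coverage of a group's libraries differed by less than the sampling noise. OGD/R 1.5 h, for which no coverage was held, was treated likewise.

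Sites were placed on the curated protein-coding transcripts of RefSeq and the mitochondrial genes (21013 genes in all), and each site took its region from the transcript with the longest CDS. Downstream bases came from the genome. Sequences are from RefSeq's mm10. Python 3.11.15, numpy 2.4.6, scipy 1.17.1, pysam 0.24.0, samtools 1.23.1, ViennaRNA 2.7.2, blastn 2.17.0 and matplotlib 3.10.9 were used, and the measures were tested on simulated data.

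The members and lists were chosen with earlier results of these data known. Sites named are those called in all 9 libraries, the 3 highest by mean log2(score + 1) of those called in 1 group only, the 3 largest changes in each direction among those that do not overlap, and the genes with most sites or on the marker and m5C lists. Log2 differences of single sites use log2(score + 1).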

Additional observations from a re-analysis of the deposited data

Results flagged for a closer look

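Isolation of GGG sites relative to other mRNA sites had opposite signs in the OGD/R groups. The difference was positive in every OGD/R 3 h library, with a mean of 8.18 percentage points, and negative in every OGD/R 1.5 h library, with a mean of -3.07 points (-1.35 without replicate 1). The opposite signs did not hold under every setting. With 25 nt the differences were 0.763 points in OGD/R 1.5 h and 4.24 in OGD/R 3 h, and for GG at bases 2 and 3 they were 4.03 and 5.29. By score, OGD/R 3 h turned at 100 and over (37.5% against 42.7%) and OGD/R 1.5 h at 10 to 29 (67.3% against 58.0%). In the CDS, the share of GGG sites was above that of other sites in every OGD/R 3 h library, by 2.02 points on average, and below it in every library of control (-8.63 points) and OGD/R 1.5 h (-6.44 points). Neither contrast between groups was tested.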

How the results depend on the processing

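The shares, ratio to cytosines, differences between GGG and other sites, pairing, score changes and gene counts were computed again under other settings. By the mean over groups, the shares, ratio, differences and pairing all kept their direction but 1. The numbers of score changes, score ranges and genes are counts and have no direction. Other results, the CDS difference among them, were not computed again. Values of single groups changed sign more often. The causes of the changes were not tested. The share of GGG sites in OGD/R 3 h minus control was -0.819 to -0.551 points with each library left out in turn. It was -1.14 with scores of at least 10, -0.194 with isolated sites and -2.57 for GG at bases 2 and 3. OGD/R 1.5 h minus control ran from -0.657 to -0.388, with -0.739 for isolated sites, -1.25 for GG and -0.250 for sites called in all 3 libraries. OGD/R 3 h minus OGD/R 1.5 h ran from -0.195 to -0.120 and reversed to 0.544 with isolated sites. It was -0.596 with scores of at least 10, -1.33 for GG, -0.541 and -0.325 for sites called in all 3 or at least 2 libraries, -0.0555 with genes weighted equally and -0.289 without genes of the cell type lists. The ratio to cytosines ran from 1.83 to 1.87, with 2.21 for scores of at least 10 and 2.06 and 1.98 for sites called in all 3 or at least 2 libraries.

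With a library left out, the differences ran from 4.13 to 5.77 points for recurrence, 1.60 to 2.78 for isolation, -3.10 to -2.36 for the start codon region and 6.91 to 7.44 for the 3′ UTR, and from 0.89 to 1.00 (log2) for the score. Other settings moved some of them further. Recurrence was 1.00 points and isolation 3.89 points for GG, and the score difference was 0.287 (log2) with scores of at least 10. The start codon difference was -0.791 points with 50 nt around the codon and -6.74 with scores of at least 10. With the 9 libraries as replicates, the exact permutation test gave p = 0.00391 for recurrence (5.99 points, adjusted 0.00781) and score (log2 0.95, adjusted 0.00781), p = 0.0352 for the start codon region (-2.69 points, adjusted 0.0469) and p = 0.301 for isolation (2.04 points, adjusted 0.301). That test takes 9 libraries for the 3 samples counted here, and the recurrence values of a group rest on the same sites, so these p-values overstate the evidence. The 3′ UTR difference was 9.93 points with scores of at least 10, 2.01 for GG (-0.298 in OGD/R 3 h) and 4.88 without repeats. Other sign changes within groups were recurrence in OGD/R 3 h (-0.272 with scores of at least 10, -0.463 for GG), isolation in OGD/R 1.5 h (0.763 with 25 nt, 4.03 for GG) and in control (-1.33 with scores of at least 10, -1.47 with 5 nt, -0.0518 without replicate 3), and pairing of the site in OGD/R 3 h (4.85 with 41 nt, 2.75 with 71 nt). The start codon difference of control (0.227) was between -2.36 and -0.0746 under 6 other settings. Pairing of the site was 4.52 to 5.44 points above unlisted cytosines with a library left out and 9.58 with 41 nt, and pairing of the guanines ran from -12.2 to -11.4. GGG sites whose scores did not overlap numbered 5 to 7 with a library left out (OGD/R 3 h against control, 29.2% to 37.7% of all mRNA sites), 4 to 9 (OGD/R 1.5 h against control, 28.7% to 33.6%) and 1 to 2 (between the OGD/R groups, 31.5% to 40.1%). Recurrence was higher in 7 to 10 of 15 score ranges. Genes with a GGG site numbered 70, 48 and 74 with calls in all 3 libraries and 117, 81 and 113 with at least 2. The settings on repeats, predicted transcripts, cell type genes, the 3′ UTR, genes and left-out libraries for pairing, score changes and score ranges were chosen after seeing the data, as was leaving out capped sites.

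No paired analysis was possible because the results come from no test between groups and no source pairs the libraries. Library depth is not given, and coverage was held only in part, for control and OGD/R 3 h. Absence of a site therefore cannot be told from lack of coverage, nor a group's number of sites from its depth. The score does not give the methylation level. SDs measure the spread between libraries only, whose source is not known, and the exact permutation p-values rest on the spread between the 3 group values, or between the 9 libraries where so stated.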

Other observations

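Outside protein-coding exons the files list 7831 sites, of which 276 (3.52%) have GGG at bases 2 to 4, against 3.27% of the mRNA sites. With a group's libraries merged, the share was 4.58% in control (174 of 3795), 3.93% in OGD/R 1.5 h (143 of 3635) and 3.35% in OGD/R 3 h (150 of 4483). The groups thus stood in the same order as by the share among mRNA sites.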
